A study of Etheostoma caeruleum with 18 samples.

Results

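Livers of rainbow darter (Etheostoma caeruleum), a small river fish of eastern North America, were compared between 6 fish held in water with S-venlafaxine and 6 control fish. These were 12 of the 18 libraries of the study, 1 liver RNA library per fish, and they were chosen by their treatment label. Control fish received no venlafaxine. S-venlafaxine fish were held for 14 days at 1 µg/L, and a group of 6 fish held at the same concentration of R-venlafaxine entered the fit and is given beside the results. All fish were wild-caught in the Grand River in Ontario and kept for 14 days in clean water before exposure, and the labels give no sex, age or size. Treatments were allotted to exposure tanks at random, with at least 6 fish in a tank, and the labels tie no fish to a tank. Library names carry a letter, A, B or C, each found in every group, and the labels do not explain it. Differences between tanks therefore cannot be told apart from those of exposure. The p-values set the difference between groups against the spread between fish, taken as independent. The features compared were the 59733 assembled genes, of 302933 listed, that passed a low-count filter.

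Venlafaxine is an antidepressant that blocks the transporters by which neurons take serotonin and noradrenaline back up, and it reaches rivers with treated wastewater. The R and S enantiomers are molecules that mirror one another. The liver is the main organ of drug metabolism and of the synthesis of blood proteins in fish as in mammals, and a few secreted proteins usually account for much of its messenger RNA. The tables pair no assembled gene with a gene name, so roles cannot be given, and the liver identity of the samples could not be checked on markers. A gene here is a unit of a Trinity assembly, and a component is a group of such units that share the first part of their identifier. In bulk tissue, fewer cells of a type and less RNA per cell cannot be told apart.

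Library totals ran from 43.8 to 65.6 M estimated counts (M, mega) in controls and from 47.4 to 51.5 M in S-venlafaxine fish. The means were 54.7 ± 9.23 M and 50.0 ± 1.75 M (SD, n = 6 each; two-sided exact permutation p = 0.258, adjusted p = 0.512 over 7 measures of whole libraries). The 100 most abundant genes of a library held 44.1% to 49.1% of it in controls and 43.0% to 47.3% in S-venlafaxine fish. S-venlafaxine fish had 31184 ± 1314 genes at 1 TPM, a transcript's abundance relative to all others of its library, or more and controls had 29505 ± 1588 (SD, n = 6 each). That difference did not pass (two-sided exact permutation p = 0.0758, adjusted p = 0.265), and the ranges overlapped, at 29775 to 32825 and 27297 to 31826 genes.

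Single-gene differences after S-venlafaxine were small where expression was high, and wide and imprecise where it was low. Genes were split into 6 classes by their mean TPM over all 18 fish. Among the 187 genes at 1000 TPM or more, the median absolute log2 fold change was 0.10, and 90% of the genes lay below 0.30. Among the 696 genes at 100 to 1000 TPM the median was 0.12, as it was among the 5302 genes at 10 to 100 TPM. The 21105 genes at 1 to 10 TPM had a median of 0.17, the 9795 genes at 0.5 to 1 TPM a median of 0.38, and the 22648 genes under 0.5 TPM a median of 0.50. The typical size of a difference was thus nearly flat above 10 TPM and widened below it.

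The error of a fold change widened in step with its size. The median standard error of a log2 fold change was 0.17 at 1000 TPM or more, 0.18 at 100 to 1000 TPM and 0.19 at 10 to 100 TPM. It was 0.28 at 1 to 10 TPM, 0.72 at 0.5 to 1 TPM and 1.10 under 0.5 TPM. In every class the median difference was smaller than the median standard error of that class, so the typical difference was within its own error. Fold changes over 2-fold were found for 24.8% of the genes under 0.5 TPM, 18.1% at 0.5 to 1 TPM and 6.33% at 1 to 10 TPM. Above that they were found for 2.34% at 10 to 100 TPM, 2.01% at 100 to 1000 TPM and 1.60%, or 3 genes, at 1000 TPM or more. These shares include 331 genes listed at 0 in a whole group, 323 of them under 1 TPM, for which a fitted fold change is no measure of size. Under 0.5 TPM the share over 2-fold ran from 0% in limma on log2(TPM + 1) to 56.9% with no filter. Adding 1 TPM leaves little room for such a difference at these levels, and no filter brings in further genes. That range is therefore not a measure of the same genes on 1 scale.

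**Figure D1:**
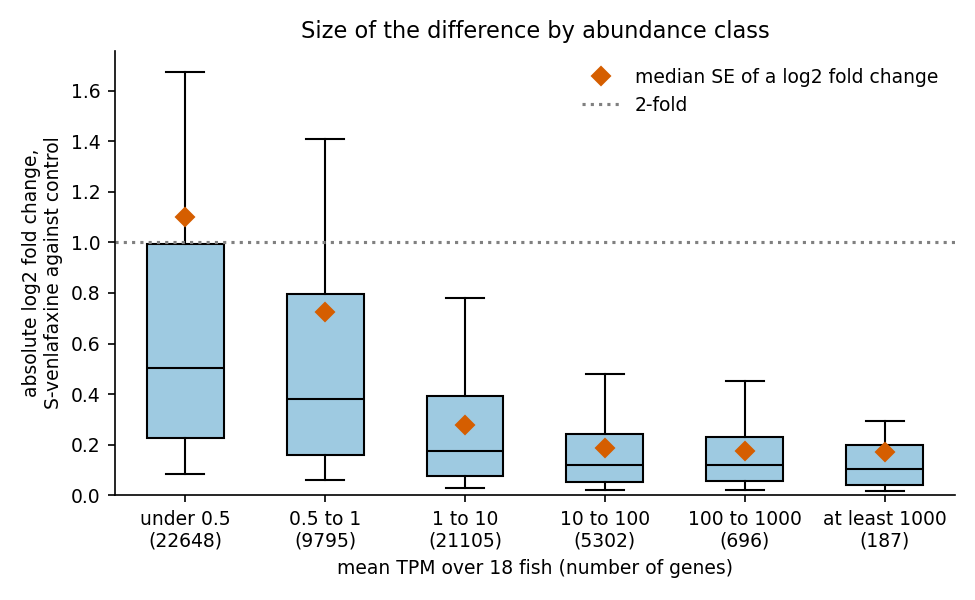
Absolute log2 fold change of S-venlafaxine against control (vertical axis) for 59733 assembled genes in 6 classes of mean TPM (horizontal axis, number of genes in brackets). Boxes span the quartiles with the median as a line, whiskers the 10th to 90th percentile, diamonds mark the median standard error of a log2 fold change and the dotted line a 2-fold difference. Medians fall from 0.50 under 0.5 TPM to 0.10 at 1000 TPM or more, each below its diamond.

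The intervals show how large a difference these groups could have hidden. No more than a 2-fold difference, up or down, was left inside the 95% interval for 87.2% of genes at 1000 TPM or more, 82.8% at 100 to 1000 TPM and 80.5% at 10 to 100 TPM. The same held for 59.8% of genes at 1 to 10 TPM, 20.8% at 0.5 to 1 TPM and 5.33% under 0.5 TPM. Within 4-fold the shares were 95.2%, 93.7%, 94.3%, 81.8%, 50.0% and 32.4%, from the most to the least abundant class. For most genes under 0.5 TPM the interval therefore reached beyond 4-fold on at least 1 side.

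Fitted differences were small for the most abundant liver transcripts. The 20 genes with the highest mean, at 5436 to 39700 TPM, had log2 fold changes between -0.66 and 0.12 with a median of -0.08. Of these 20, 16 were lower and 4 higher in S-venlafaxine fish, and their groups overlapped in every case. The gene at -0.66 (SE 0.19), the 12th most abundant, was the single gene of the 20 with an unadjusted p under 0.05 (edgeR adjusted p = 0.9999). It stood at 6895 to 11833 TPM in controls, with a median of 8637, and at 4836 to 7704 TPM in S-venlafaxine fish, with a median of 5171. In R-venlafaxine fish it ranged from 7176 to 10648 TPM. S-venlafaxine 1 was the single fish of its group inside the control range.

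A single gene passed the test. In edgeR's quasi-likelihood test with Benjamini-Hochberg adjustment, 1 of 59733 genes was called at an adjusted p under 0.05, which is 0.00167% of the genes tested, and it was lower in S-venlafaxine fish. No gene was called higher in edgeR, where 905 genes were higher at an unadjusted p under 0.05, and DESeq2 called 29 higher. The gene called was TRINITY_DN2810_c5_g1, the only gene of its component and a low one. Its level in controls 1 to 6 was 1.14, 1.58, 0.80, 0.30, 0.47 and 0.25 TPM, and it was listed at 0 in all 6 S-venlafaxine fish. In R-venlafaxine fish it was listed at 0.24 to 0.75 TPM. S-venlafaxine fish thus lay below every control and every R-venlafaxine fish, and no fold change is given against a group listed at 0 (edgeR adjusted p = 0.0203). The call was lost on leaving out control 5 or any of R-venlafaxine 3 to 6, at edgeR adjusted p = 0.0552 to 0.0668, and in a fit of the 12 libraries alone, at 0.530. Over all alternatives its adjusted p ran from 3.61e-11 in DESeq2 to 0.991 in limma voom.

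Among genes at 10 TPM or more, TRINITY_DN187_c0_g1 had the lowest p of those lower after S-venlafaxine. It stood at 480, 448, 497, 546, 476 and 371 TPM in controls 1 to 6 and at 232, 246, 217, 286, 349 and 268 TPM in S-venlafaxine 1 to 6. The groups did not overlap, since the highest S-venlafaxine fish was below the lowest control. R-venlafaxine fish ran from 193 to 478 TPM, and 5 of those 6 were below the lowest control. Controls averaged 470 ± 58.2 TPM and S-venlafaxine fish 266 ± 47.3 TPM (SD, n = 6 each). The log2 fold change was -0.86 (SE 0.22, 95% interval -1.33 to -0.40), which did not pass adjustment (edgeR adjusted p = 0.9999).

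In the other direction the lowest p belonged to TRINITY_DN1583_c0_g1, which edgeR did not call. Its level was 1.93, 2.83, 3.05, 2.49, 2.30 and 3.52 TPM in controls 1 to 6 and 5.08, 3.77, 6.95, 6.20, 3.67 and 8.84 TPM in S-venlafaxine 1 to 6. R-venlafaxine fish lay between 2.95 and 4.47 TPM, across the top of the controls and the bottom of the S-venlafaxine fish. All 6 S-venlafaxine fish were above the highest control, though S-venlafaxine 2 and 5 only narrowly. The log2 fold change was 1.06 (SE 0.20), at an adjusted p of 0.9999 in edgeR and 8.8e-04 in DESeq2, with a range of 8.8e-04 to 1 over the alternatives.

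TRINITY_DN856_c0_g2 had the lowest p of the higher genes at 10 TPM or more, and edgeR did not call it. It stood at 5.53, 6.20, 10.7, 3.95, 9.20 and 9.94 TPM in controls 1 to 6 and at 14.7, 16.9, 15.3, 21.7, 17.5 and 14.9 TPM in S-venlafaxine 1 to 6. R-venlafaxine fish, at 5.45 to 11.2 TPM, all lay below the lowest S-venlafaxine fish. The log2 fold change was 1.13 (SE 0.23, 95% interval 0.63 to 1.62), at an adjusted p of 0.9999 in edgeR and 0.0038 in DESeq2, with a range of 0.0038 to 1 over the alternatives. The other 2 genes of its component did not share the difference, with a summed mean of 6.93 TPM in controls against 5.87 TPM after S-venlafaxine. With counts summed over the component the log2 fold change was 0.61, smaller than that of the gene alone.

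**Figure D2:**
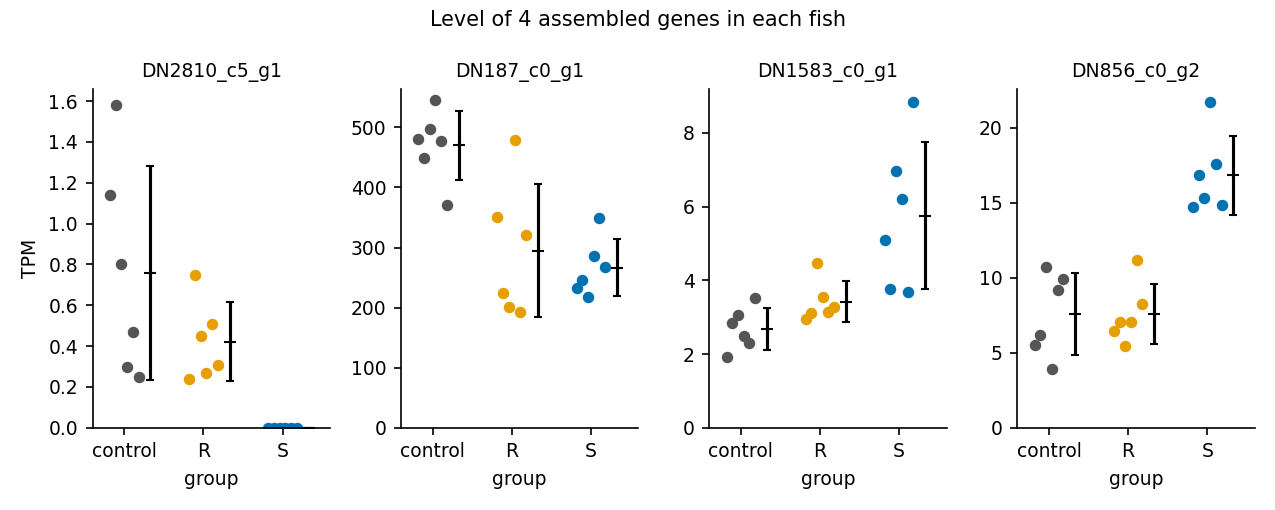
TPM (vertical axis, from 0, a scale for each gene) of the 4 genes given by identifier, in control, R-venlafaxine and S-venlafaxine fish (horizontal axis). Each point is a fish, and the bar beside the points is the mean ± SD of 6 fish. S-venlafaxine fish lie below all controls in the first 2 panels (0 against at least 0.25 TPM, at most 349 against at least 371 TPM) and above all controls in the others.

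The gene with the lowest p in other abundance classes shows what kinds of pattern the test ranked first. At 1 to 10 TPM, the first of the lower genes ranked 2 by p among all genes. It stood at 1.80 to 13.3 TPM in controls, 1.65 to 1.92 TPM in S-venlafaxine fish and 2.19 to 8.71 TPM in R-venlafaxine fish. Control and S-venlafaxine ranges overlapped. Its log2 fold change was -2.25 (SE 0.36), at an adjusted p of 0.331 in edgeR and 1.8e-06 in DESeq2. At 0.5 to 1 TPM, the first of the higher genes went from 0.45 to 0.82 TPM in controls to 1.18 to 1.93 TPM in S-venlafaxine fish, with R-venlafaxine fish at 0.37 to 1.04 TPM. Its groups did not overlap, at a log2 difference of 1.29 (SE 0.30) and an adjusted p of 0.9999 in edgeR and 0.0083 in DESeq2. At 10 to 100 TPM, the first of the lower genes stood at 88.7 to 158 TPM in controls, with a median of 118, and at 17.5 to 55.5 TPM in S-venlafaxine fish. Its groups did not overlap either. R-venlafaxine fish ran from 18.1 to 112 TPM, with 5 of 6 below the lowest control. Its log2 fold change was -1.78 (SE 0.45), at an adjusted p of 0.9999 in edgeR and 0.0474 in DESeq2. This gene belongs to the 14 that varied alike from fish to fish, described below.

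Other genes that came first in their class were uneven between fish of a group. At 100 to 1000 TPM, the first of the higher genes was at most 1.39 TPM in controls, while S-venlafaxine 1 to 6 had 0, 1009, 52.5, 2.46, 4.03 and 1.24 TPM. S-venlafaxine fish were above the highest control in 4 of 6 cases, and the ranges overlapped. R-venlafaxine 1 to 3 had 1025, 1419 and 1711 TPM of it, and the other R-venlafaxine fish at most 12.9 TPM. Its adjusted p was 0.9999 in edgeR and 7.0e-04 in DESeq2. At 1000 TPM or more, the first of the higher genes stood at 540 to 752 TPM in controls and at 573 to 1078 TPM in 5 S-venlafaxine fish, with S-venlafaxine 2 at 8771 TPM. R-venlafaxine 3 had 10094 TPM of the same gene, while the other 5 R-venlafaxine fish were at 549 to 754 TPM. This gene had an unadjusted edgeR p of 0.0739, and DESeq2 gave it no adjusted p.

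**Figure D3:**
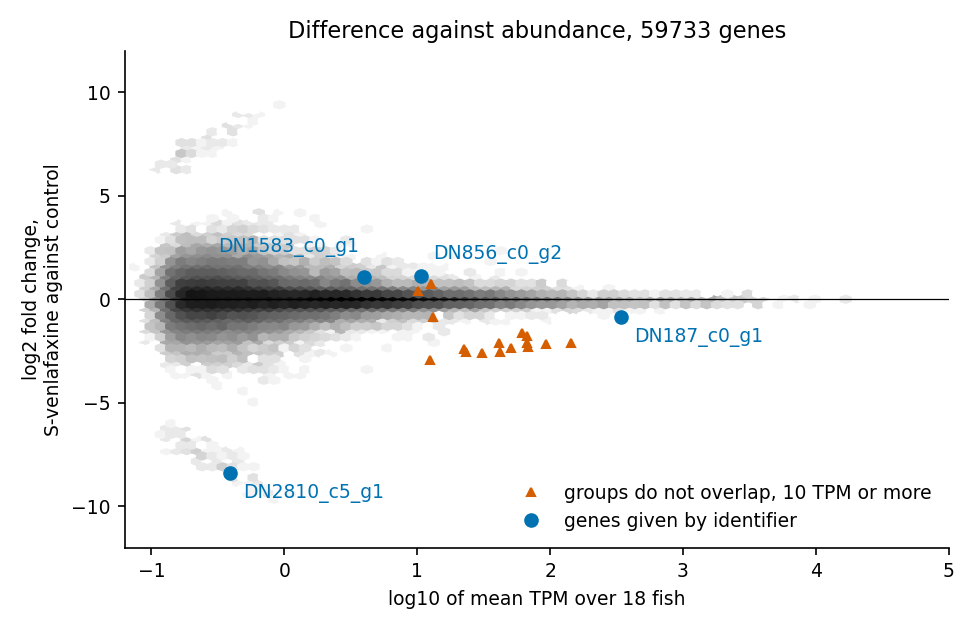
Log2 fold change of S-venlafaxine against control (vertical axis) against the log10 of the mean TPM over 18 fish (horizontal axis) for 59733 assembled genes, with darker cells holding more genes. Circles are the 4 genes given by identifier and triangles the other genes at 10 TPM or more whose groups do not overlap; of the 327 genes beyond 6 in either direction, 313 are listed at 0 in a whole group, and their fitted values are no measure of size. Triangles below 0 lie between -2.95 and -0.87.

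The smallest p-values were also counted by direction in each abundance class. An unadjusted p under 0.05 was reached by 1927 genes, 3.23% of those tested, of which 905 (1.52%) were higher and 1022 (1.71%) lower after S-venlafaxine. The share was below the 5% that evenly spread p-values give in every class, from 2.14% at 1000 TPM or more to 4.17% at 100 to 1000 TPM. Under 0.5 TPM, 339 genes were higher and 256 lower, and at 0.5 to 1 TPM 160 were higher and 126 lower. These 499 higher and 382 lower genes under 1 TPM moved with the group that lost a fish. Leaving out any 1 of the 6 S-venlafaxine fish turned the order round, to 444 to 530 higher and 546 to 610 lower. Leaving out any 1 control kept it, at 597 to 737 higher and 366 to 390 lower. It also held in limma on log2(TPM + 0.1), at 908 higher and 619 lower. At 1 to 10 TPM edgeR gave 329 higher and 476 lower genes, an order that held under RLE and upper-quartile scaling. Limma on log2(TPM + 0.1), without scaling between libraries, gave 477 higher and 382 lower. No direction is given for either range. None of these genes other than TRINITY_DN2810_c5_g1 passed adjustment, so the counts describe the ranking and are not calls.

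Among the 883 genes at 100 TPM or more, 31 were lower and 2 higher at an unadjusted p under 0.05. Together they made up 3.74% of these genes, against 3.23% of all genes tested. The log2 fold changes of those 31 ran from -1.48 to -0.27, with a median of -0.47. Of all 883 genes, called or not, 59.2% had a fold change below 0, and the median log2 fold change was -0.04 in edgeR but 0.01 on log2(TPM + 0.1). On that scale, without scaling between libraries, the counts were 32 lower and 13 higher. The edgeR counts, 31 lower and 2 higher, also moved with single fish. They were 57 lower and 3 higher without S-venlafaxine 4, and 16 and 6 without S-venlafaxine 6. Without control 1 they were 16 and 4, and without control 3 they were 25 and 15. At 10 to 100 TPM edgeR gave 75 higher and 133 lower genes, but 121 higher and 86 lower were found on log2(TPM + 0.1), so no direction is given for that class. Over all genes that scale gave 1519 higher and 1119 lower genes, the reverse of the order in edgeR.

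**Figure D4:**
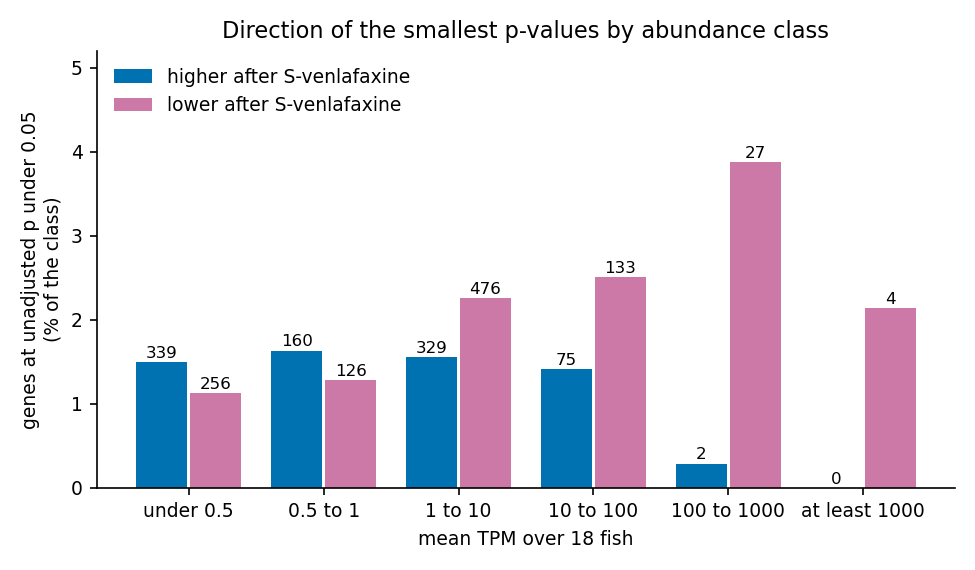
Share of each abundance class (vertical axis, %) with an unadjusted edgeR p under 0.05, by direction in S-venlafaxine against control fish, against mean TPM over 18 fish (horizontal axis). Numbers on the bars are genes. At 100 to 1000 TPM 27 genes are lower and 2 higher. Counts at 100 TPM or more moved with single fish, from 57 lower and 3 higher without S-venlafaxine 4 to 25 and 15 without control 3. At 1 to 100 TPM the order of the bars held under RLE and upper-quartile scaling. It turned round in limma on log2(TPM + 0.1), without scaling between libraries. Under 1 TPM it turned round on leaving out any 1 S-venlafaxine fish, but not on leaving out a control.

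Groups that did not overlap in TPM were found for 110 genes, 0.184% of those tested. In 61 of them (0.102%) every S-venlafaxine fish was above every control, and in 49 (0.082%) every one was below. Of the 61 higher genes, 41 were under 1 TPM and 3 at 10 TPM or more. Of the 49 lower genes, 17 were under 1 TPM and 15 at 10 TPM or more. In both directions together the share was 0.302% at 10 to 100 TPM, 0.287% at 100 to 1000 TPM and 0% at 1000 TPM or more. In the classes under 10 TPM it was 0.161% to 0.184%. With fish in random order, a gene without ties would separate the groups with a probability of 0.0022, the smallest exact permutation p. The share over all genes, 0.184%, was below that probability, as were those of the classes under 10 TPM. The shares at 10 to 100 and 100 to 1000 TPM were above it, and that excess was not tested. Of the 15 lower genes in these classes, 14 varied alike from fish to fish, as described below. They cannot be counted as separate events. Groups that do not overlap are thus a description and no evidence of a difference by themselves. The 3 higher genes at 10 TPM or more had log2 fold changes of 0.40, 0.74 and 1.13, and the 15 lower ones ran from -2.95 to -0.86.

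Of those 15 lower genes, 14 varied alike from fish to fish, each with a median r over 0.8 to the others. Over the 18 libraries their levels on log2(TPM + 0.1) correlated pair by pair at r = 0.84 to 1.00, with a median of 0.94, while the remaining gene had a median r of 0.44 with them. The 14 genes belonged to 14 different components, had means of 12.5 to 344 TPM and included TRINITY_DN187_c0_g1. Their summed level was 2055, 1837, 1636, 2163, 2072 and 1232 TPM in controls 1 to 6. In S-venlafaxine 1 to 6 it was 307, 293, 267, 865, 978 and 767 TPM. S-venlafaxine fish stood at 14.6% to 53.4% of the control mean, with fish 1 to 3 at most 16.7% and fish 4 to 6 at least 41.9%. In S-venlafaxine 1 to 3 most of the sum was TRINITY_DN187_c0_g1, at 232, 246 and 217 TPM. The next most abundant gene of the set stood at 10.4, 3.65 and 2.46 TPM in these fish, against 163 to 328 TPM in controls. The sum therefore understates how low the other genes were in these fish.

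R-venlafaxine fish were more uneven in this sum, at 1066, 273, 254, 1838, 247 and 1023 TPM. Its SD was 645 TPM in R-venlafaxine fish and 325 TPM in S-venlafaxine fish (n = 6 each). R-venlafaxine 4 was inside the control range, and the other 5 were below the lowest control. Some of the 14 genes were listed at 0 in single fish, namely 2 genes in S-venlafaxine 2, 3 in S-venlafaxine 3, 2 in R-venlafaxine 2 and 2 in R-venlafaxine 3, and none in any control. The log2 fold changes of the 14 genes, S-venlafaxine against control, had a median of -2.24, and the lowest edgeR adjusted p among them was 0.9999. Across all 59733 genes, 18 had r over 0.9 with the mean of the set over the 18 fish, the 14 among them, and all 18 were lower in S-venlafaxine fish. The set was chosen after its values were seen and for groups that do not overlap. Correlations over the 18 fish include that difference between groups, and r within a group was not computed. The choice therefore favours high r in the set, and a lower level in genes that follow its mean. The correlations and the direction are descriptions and carry no test.

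**Figure D5:**
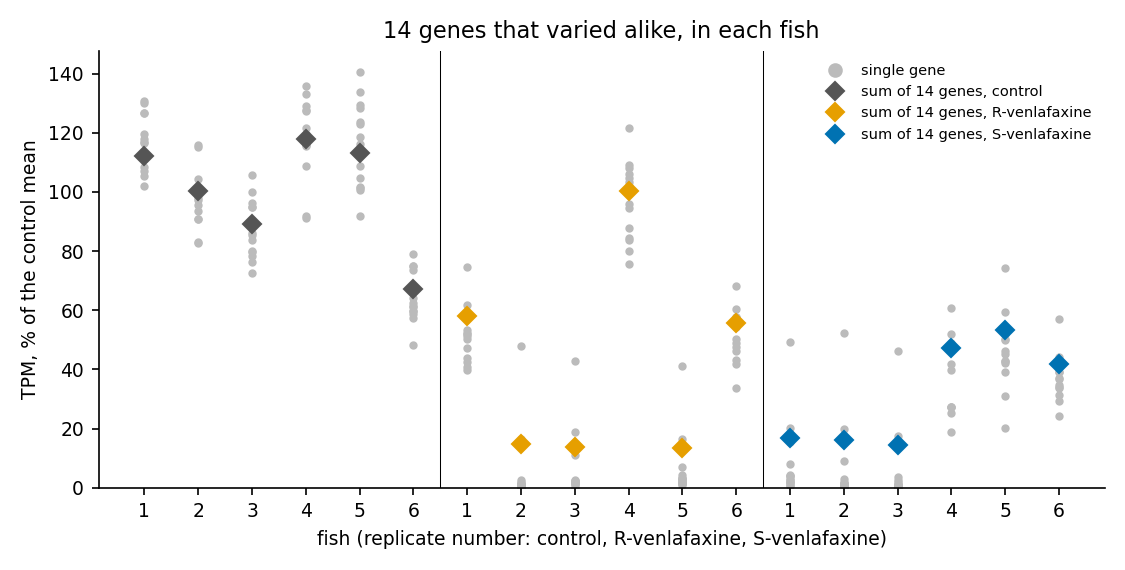
Level of 14 genes that varied alike (vertical axis, TPM as % of the control mean) in each of 18 fish (horizontal axis, replicate number within control, R-venlafaxine and S-venlafaxine, left to right). Grey points are single genes and diamonds the sum of the 14. In S-venlafaxine 1 to 3 and R-venlafaxine 2, 3 and 5 most of that sum is TRINITY_DN187_c0_g1. Controls lie at 67.2% to 118%, S-venlafaxine fish at 14.6% to 53.4%, and R-venlafaxine fish run from 13.5% to 100%.

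Genes present in one group and listed at 0 in the other were few and low. In 29 genes (0.0485% of those tested) all 6 S-venlafaxine fish were listed at 0 and at least 5 controls were above 0. In 17 genes (0.0285%) all 6 controls were listed at 0 and at least 5 S-venlafaxine fish were above 0. The group that had the transcript averaged at most 5.12 TPM in the first set and at most 2.56 TPM in the second, with medians of 0.680 and 0.658 TPM. Of the 29 genes, 3 were above 0 in all 6 controls, and of the 17, 2 were above 0 in all 6 S-venlafaxine fish. R-venlafaxine fish were mixed for these genes, with a median of 2 of 6 fish above 0 for the first set and 3 of 6 for the second. A single gene of the 29, and none of the 17, was above 0 in all 6 R-venlafaxine fish.

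DESeq2, run as an alternative on the same genes, called 65 of the 51493 genes to which it gave an adjusted p (0.126%), 29 higher and 36 lower. All 65 had an unadjusted edgeR p under 0.05, the largest being 0.0124. A whole group was listed at 0 in 36 of them, 40 had a mean under 1 TPM, and 12 had groups that did not overlap. At 10 TPM or more there were 4, of which 2 were described above as non-overlapping, namely TRINITY_DN856_c0_g2 and the lower gene with a median of 118 TPM in controls. Another of the 4 was the uneven higher gene at 100 to 1000 TPM, whose groups overlapped.

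Whether fish of a group differed more from each other after S-venlafaxine was asked gene by gene. The SD of log2(TPM + 0.1) was larger in S-venlafaxine fish than in controls for 54.7% of all genes, for 54.9% of those under 0.5 TPM and for 47.8% of those at 100 to 1000 TPM. In limma on absolute deviations from the group mean, 473 genes passed an adjusted p under 0.05 (0.792% of those tested), 228 with a larger and 245 with a smaller spread in S-venlafaxine fish. With deviations from the group median limma called none. Of the 473, 312 had a whole group listed at 0, and the test did not recover changes of spread in simulated data, so the count is not read as a result.

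Libraries were last compared as wholes, on principal components of log2 CPM (counts relative to the library total) over the 12 fish. The first component held 11.4% of the variance and did not separate the groups (two-sided exact permutation p = 0.699). On the second, with 10.1%, controls 1 to 6 scored -54.8, -91.8, 30.6, -155, -73.5 and -67.7, and S-venlafaxine 1 to 6 scored -8.09, 41.3, 152, 214, 8.60 and 3.10. Control 3 alone of the controls scored above the lowest S-venlafaxine fish. R-venlafaxine fish, placed on this component afterwards, scored -14.3 to 18.1. They took no part in its fit, which draws such scores toward 0. Their scores are therefore not compared with those of the 12 fish. The difference of means, 137, did not pass over the 7 measures (two-sided exact permutation p = 0.0087, adjusted p = 0.0606), but did without control 3, at an adjusted p of 0.0303. Over the alternatives the adjusted permutation p of component 2 ran from 0.0303 to 0.654. The highest was with genes at 10 TPM or more, whose component 2 is another axis.

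With 6185 genes at 10 TPM or more, a choice made after seeing the data, the first component held 16.4% of the variance and differed between the groups by 33.2 (two-sided exact permutation p = 0.0065, adjusted p = 0.0455). The scores of controls 1 to 6 were -48.7, -1.196, 1.47, -5.06, -17.5 and -28.7, and those of S-venlafaxine 1 to 6 were 12.6, 39.1, 35.4, 9.88, 5.22 and -2.54. S-venlafaxine 6 alone fell within the range of the controls. The genes with r over 0.9 to the set of 14 held 13.7% of this component's squared loadings. Without them the difference was 28.3 and did not pass (two-sided exact permutation p = 0.0281, adjusted p = 0.197). The set of 14 was chosen for groups that do not overlap, so leaving these genes out favours a smaller difference. Nothing is concluded from that fit. With all 6185 genes, the adjusted p on leaving out 1 fish at a time ran from 0.0303 to 0.424. It was under 0.05 only without S-venlafaxine 6.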

How the data were processed

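Per the labels' protocols, polyA RNA of liver was made into libraries with the NEBNext Ultra II Directional kit, which preserves strand. The submitters' processing notes name Trimmomatic 0.36, Bowtie2 2.2.7 and RSEM 1.3.1, without settings. The authors deposited estimated counts and TPM for 302933 assembled genes in 18 libraries. The deposited estimated counts equalled TPM scaled to each library's total, within 0.0055 TPM, for 99.977% of values. They are therefore not numbers of reads and carry no weight for gene length, and the variance a count model gives low genes is approximate. TPM is listed in steps of 0.01.

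Estimated counts were rounded, and filterByExpr, run with the groups at a count of at least 10 and a total of at least 15, kept 19.7% of the genes, holding 97.4% to 98.9% of each library. Genes were tested in edgeR by quasi-likelihood, robustly and with TMM scaling, fitted to all 18 libraries with group means, and its contrast was S-venlafaxine minus control. It was two-sided, with Benjamini-Hochberg adjustment over all 59733 genes. Fold changes come from this fit, and levels are deposited TPM. The standard error was worked back from the test, as the absolute log2 fold change over the square root of its F statistic. The 95% intervals were built from that standard error, so both are approximate. Correlations between genes used log2 levels over 18 libraries. Components used log2 CPM (prior count 2). Spread was tested with limma on log2(TPM + 0.1). Measures of whole libraries were compared by exact permutation, whose smallest p for 6 against 6 is 0.0022. The edgeR and spread tests were tried on simulated data, where edgeR called larger changes more often than smaller ones and the spread test called none. Alternatives were other scalings, DESeq2, limma voom, limma on log2 TPM, other filters, blocks, component sums and leaving out each library. Versions were R 4.3.3, edgeR 4.0.16, limma 3.58.1, DESeq2 1.42.0, matplotlib 3.10.9, scipy 1.17.1, pandas 2.3.3, numpy 2.4.6 and Python 3.11.15.

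The comparison, abundance classes and genes were chosen with earlier results of these data known. As no names are paired with identifiers, at most 2 higher and 2 lower genes are given by identifier, those with the lowest p overall and at a mean of 10 TPM or more. The gene with the lowest p in each class and direction may be described without one. Same-numbered control and S-venlafaxine libraries deviated from their group means with correlations of -0.039 to 0.041, so replicate numbers were treated as not pairing fish.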

Additional observations from a re-analysis of the deposited data

Results flagged for a closer look

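Among 22 sets of 6 library values, chance marks about 1 in 20, and 1 fish stood far from the others of its group. The share of TPM held by genes at 100 to 1000 TPM was 20.97% in the highest S-venlafaxine library, and the next library of that group was at 20.42%. The group averaged 20.5 ± 0.244% and controls 20.5 ± 0.838% (SD, n = 6 each), so this fish was inside the range of the controls, 19.3% to 21.6%.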

How the results depend on the processing

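The count of 1 called gene was unchanged under RLE and upper-quartile scaling, limma on log2(TPM + 0.1), component sums and the library letter as a block. It was 65 in DESeq2 and 0 with a filter at 1 CPM in 6 libraries, at a mean of 1 TPM or with no filter, in limma voom, in limma on log2(TPM + 1), and in a fit of only the 12 libraries compared. TRINITY_DN2810_c5_g1 is removed by the filters at 1 CPM and at a mean of 1 TPM, and for the others the cause was not tested. Leaving out 1 library gave 0 to 2 calls, with 2 without control 1 or control 3. A replicate block gave a count of 0, and since the numbers showed no pairing of fish this is not read as a weaker effect. The other 3 genes given by identifier kept their direction under every alternative that tested them, and 2 passed in DESeq2. The count of genes with a different spread, 473, was 0 with deviations from the group median and 594 to 782 on leaving out a library.

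The difference on component 2, 137, was 108 to 154 on leaving out a library, and that on component 1, 23.7, ran from -43.3 to 73.9. With genes at 10 TPM or more the difference was 33.2 on component 1 and 8.01 on component 2. Components of another set of genes are other axes on another scale, so these values are not set against 23.7 or 137. Genes with S-venlafaxine at 0, 29 of those tested, numbered 112 with no filter, 4 with the CPM filter and 2 with the mean TPM filter. Genes with controls at 0, 17 of those tested, numbered 98, 3 and 2 under the same filters, and these filters, the sets of component genes and the overlap on another scale were chosen after seeing the data. On TMM-scaled CPM, 56 higher and 69 lower genes did not overlap, against 61 and 49 in TPM. At 10 to 100 TPM, log2(TPM + 1) gave 117 higher and 83 lower genes at an unadjusted p under 0.05. Another scaling in place of TMM moved the median log2 fold change by 0.0026 (RLE) and -0.0058 (upper quartile). Without scaling between libraries, limma on log2(TPM + 0.1) had a median of 0.042 over all genes, against 0.0091 in edgeR. That fit also differs from edgeR in its method. The median absolute log2 fold change ran from 0.094 to 1.37 over the alternatives under 0.5 TPM, and from 0.10 to 0.15 at 100 to 1000 TPM. Under 0.5 TPM the lowest came from log2(TPM + 1), which compresses low values, and the highest from no filter, which holds further genes. Below 1 TPM the standard errors are wide and the table lists values in steps of 0.01 TPM.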
